A study of Mus musculus with 10 samples.

Results

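The genes of actomyosin, the actin and myosin machinery with which cells pull and contract, were examined in mouse progenitors that have or lack the adaptor gene Ldb1. The set holds 35 named genes, chosen by symbol with earlier results of these data known. Of these, 34 were matched in a count table of 21868 genes. The expression of Myl6 was not analysed here. The cells were derived from embryonic stem (ES) cells of the genotypes Ldb1+/+ (WT) and Ldb1-/- (KO). Both were grown in suspension in serum medium without leukemia inhibitory factor, so that they form embryoid bodies, and were sorted for Flk1, the receptor that marks common progenitors of blood and vessels. The labels list 4 RNA libraries per genotype. They do not give the strain, the number of ES cell clones, the structure of the Ldb1 allele or, for RNA, the day of culture, so Ldb1 loss and any other way in which the lines differ cannot be told apart. The Ldb1 protein bridges DNA-binding factors, among them LIM-domain proteins.

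Within a genotype, libraries 1 and 2 were near-duplicates, and so were libraries 3 and 4 (mean chi-square per gene 1.065 to 1.101, where 1 is sampling noise, against 12.76 to 28.47 for the other pairs within a genotype). Each pair was therefore summed and counted as 1 sample, which leaves sample A, from the first pair, and sample B, from the second, n = 2 per genotype, with 22674679 to 26775787 reads each. Separate cultures are not named for A and B, so each p-value rests on the spread of these samples alone, which may be technical. Levels are reads per 1000000 after scaling by TMM (CPM), and pairs of values are given in the order A, B. Kdr, which encodes Flk1, was present in all samples, at 440 and 605 CPM for WT against 236 and 78.6 for KO.

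In actomyosin, myosin II filaments slide along actin filaments. Phosphorylation of the regulatory light chains, by kinases that include Mylk, Rock1 and Rock2, switches the motor on. Tropomyosin, caldesmon and calponin lie along the actin filament, and alpha-actinins and filamins tie filaments into bundles and networks. Many of these genes are transcribed through serum response factor (Srf), whose partners of the MRTF family are held back by free actin monomers. In embryos the muscle forms of these proteins are made by smooth muscle and heart precursors, whose mesoderm also gives rise to blood and vessels, while the cytoplasmic forms are made by nearly all cells.

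Contractile genes as a set stood higher in the KO samples, though earlier results were known when the set was chosen. In 31 of the 34 members the fitted log2 fold change of KO over WT was above 0 (91.2%, against 48.7% of the 16785 genes tested), and their median was 0.74 against -0.0092 for all genes tested. For 29 members both KO samples lay above both WT samples, against 23.2% of all genes tested. For Smtn both lay below, against 22.4%, and for Actg1, Srf, Mylk and Pfn1 the genotypes overlapped. In 9 members the log2 fold change was above 1, against 3.09% of all genes. All 34 members passed the filter on low counts. Summed over the members, 1.35% and 1.57% of all reads in WT A and B and 1.97% and 2.36% in KO A and B came from these genes, a difference of 0.709 percentage points (exact permutation test, two-sided, p = 0.33, the smallest that 2 against 2 samples allow).

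**Figure D1:**
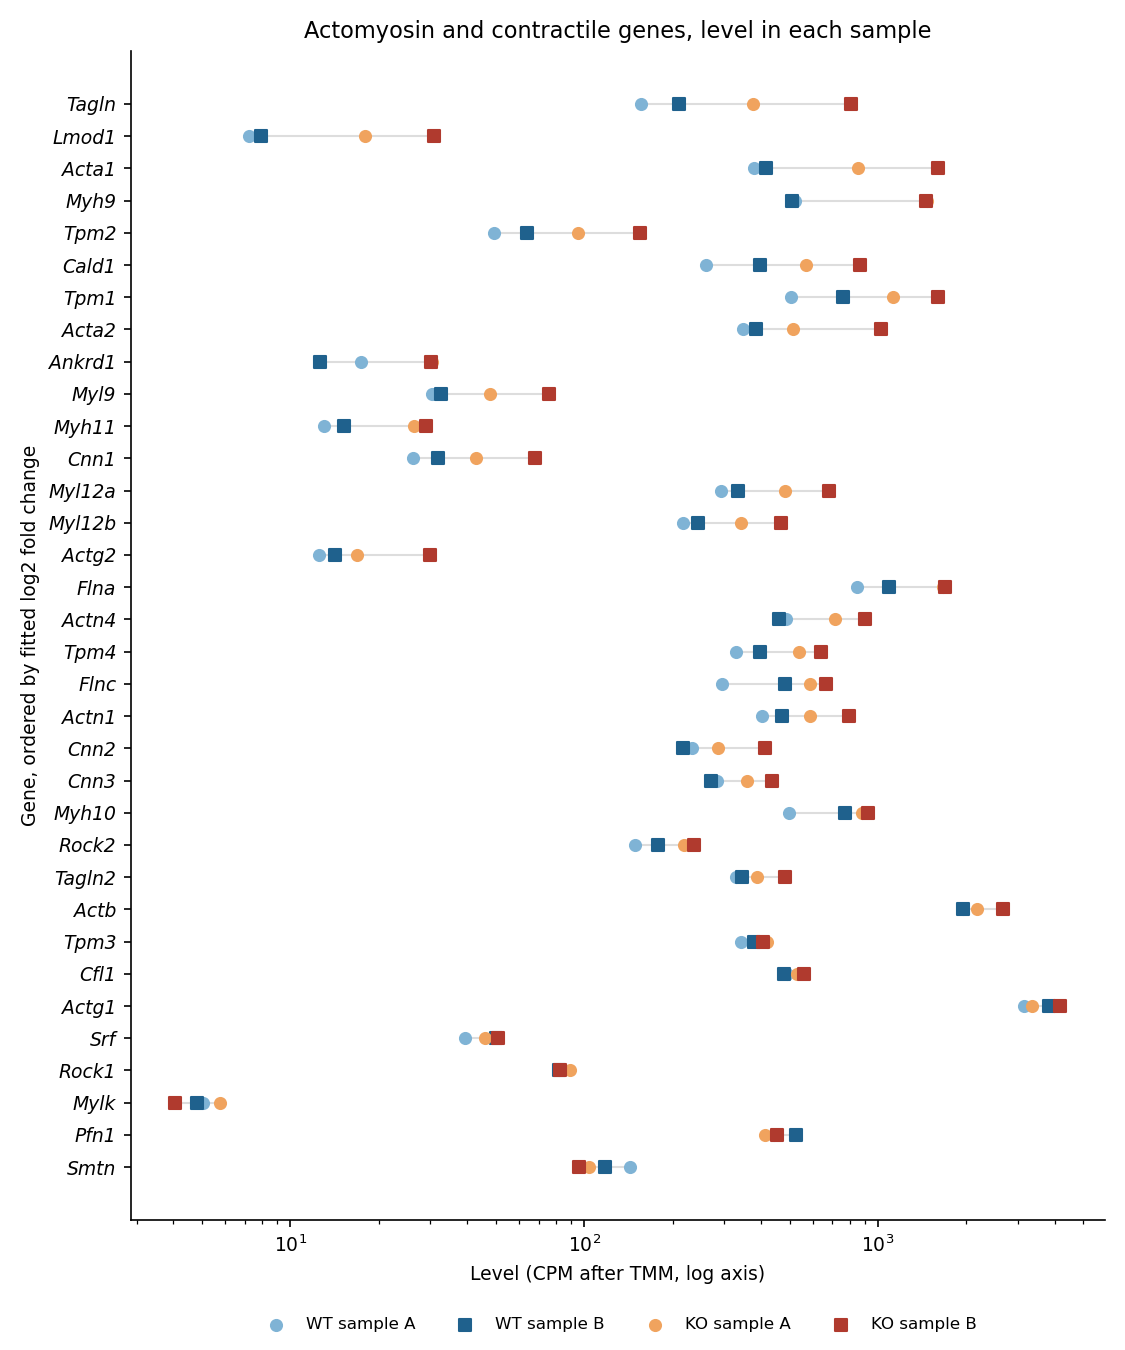
Level of each of the 34 contractile genes in the 4 samples, in CPM on a log axis, with genes ordered by fitted log2 fold change. Circles are samples A and squares samples B, light and dark blue for WT and orange and red for KO. In the top 28 rows, down to Cfl1, both KO points lie to the right of both WT points.

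Only Myh9 passed the edgeR quasi-likelihood test over all genes at a Benjamini-Hochberg adjusted p of 0.05, among the 0.0596% of genes called higher and 0.125% called lower in KO. At an unadjusted edgeR p under 0.05, 23 members were higher and 1 lower, against 7.61% and 7.86% of all genes tested. The number of calls turned on the tool. DESeq2 called 19 members higher and 0 lower, against 3.41% and 3.55% of all genes, and limma-voom called 0, with 22 members higher and 0 lower at an unadjusted p under 0.05. Verbs of change are kept below for Myh9, and the other members are given by their values.

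**Figure D2:**
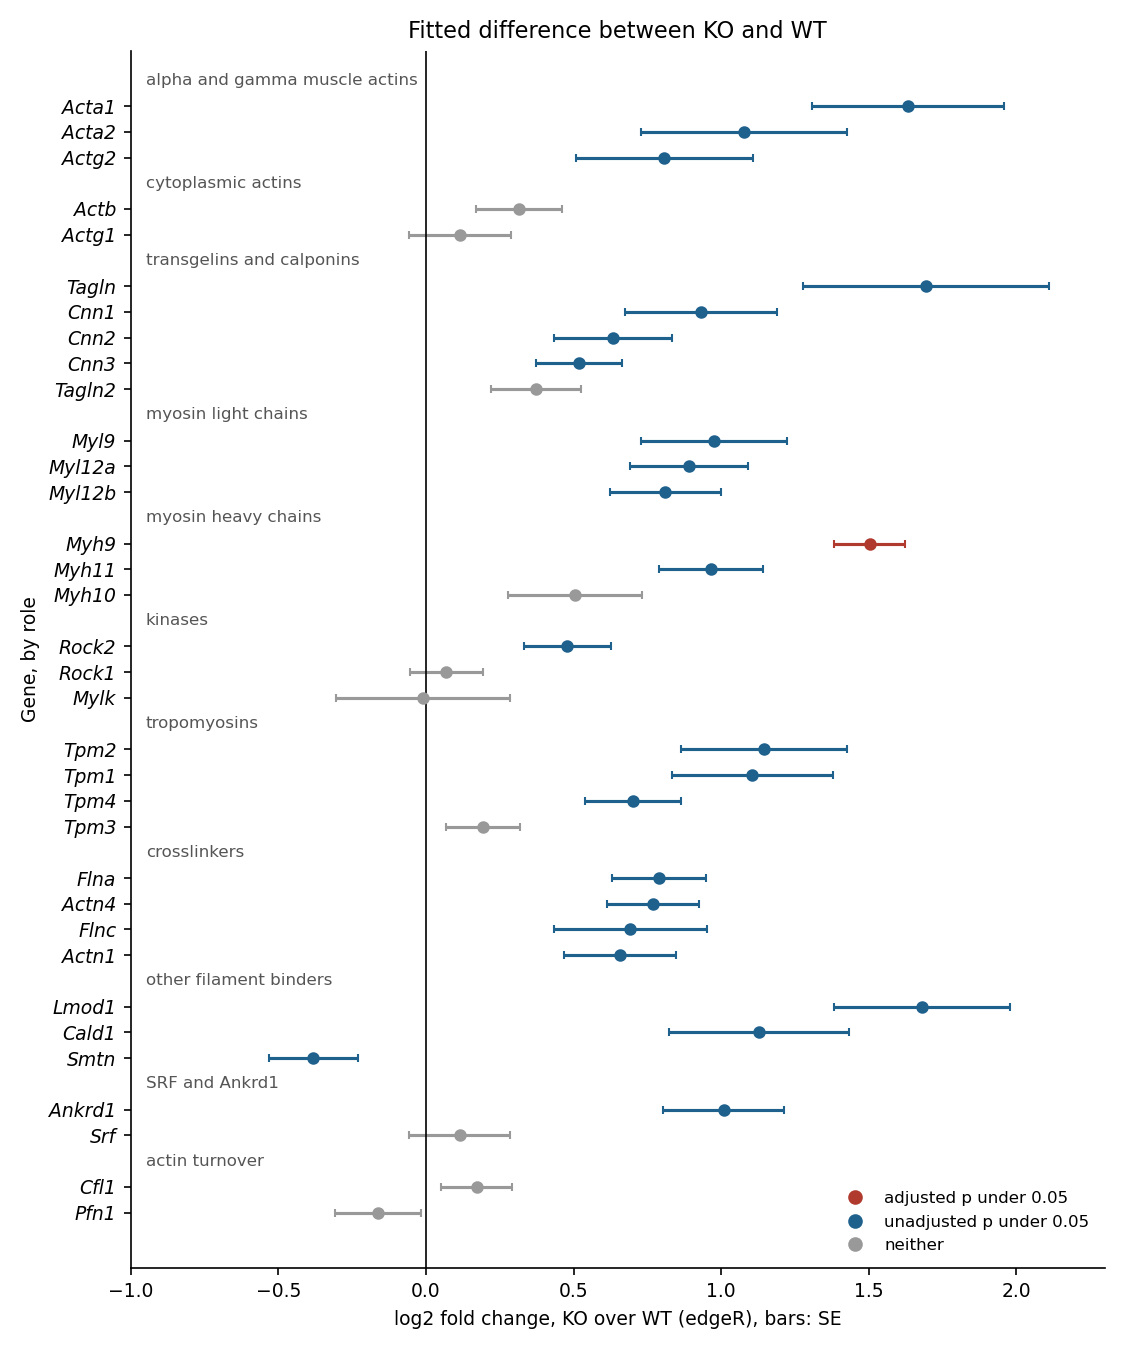
Fitted log2 fold change of KO over WT for each member, with its standard error as a bar, grouped by role. Myh9 (red) passed the adjusted test, 23 members (blue) had an unadjusted p under 0.05, and the others (grey) had neither.

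Among the myosin heavy chains, the motor subunits, the non-muscle form Myh9 (ENSMUSG00000022443, chromosome 15) rose in KO with almost no spread between samples. It stood at 522 and 508 CPM for WT against 1465 and 1457 for KO, a log2 fold change of 1.503 (SE 0.12, edgeR adjusted p = 0.0476, n = 2 per genotype). Even the lower KO sample stood 2.79-fold above the higher WT sample. The call was lost by limma-voom, with a filter of 1 CPM in 2 samples, with sample A or B as a block (adjusted p = 0.0839) and without either KO sample, while the fitted value stayed between 1.47 and 1.52 in all 24 alternatives.

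The other non-muscle heavy chain, Myh10, had a smaller fitted difference. It stood at 498 and 772 CPM for WT against 880 and 924 for KO (log2 fold change 0.51, SE 0.23, edgeR adjusted p = 0.383), so its WT samples differed from each other by more than WT B differed from KO. Myh10 lies on chromosome 11, whose genes stood at a median of -0.47 in KO, and with each chromosome's median removed its value was 0.98 (SE 0.23). Myh11, the heavy chain of smooth muscle, was far less abundant, at 13.02 and 15.3 CPM for WT against 26.3 and 29.0 for KO (log2 fold change 0.97, SE 0.17, adjusted p = 0.110). Per kilobase of transcript, the mean level of Myh9 was 69.6 CPM in WT and 197 CPM in KO, that of Myh10 80.6 and 114 CPM, and that of Myh11 2.16 and 4.22 CPM, so the smooth muscle motor made up little of the heavy chain RNA in either genotype.

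The 3 regulatory light chains measured stood higher in KO by similar amounts. Myl9, the form typical of smooth muscle, was at 30.3 and 32.6 CPM for WT against 47.7 and 76.1 for KO (log2 fold change 0.98, SE 0.25). Myl12a was at 293 and 335 CPM for WT against 483 and 683 for KO (0.89, SE 0.20). Myl12b was at 217 and 244 CPM for WT against 341 and 468 for KO (0.81, SE 0.19). All 3 had both KO samples above both WT samples, against 23.2% of all genes tested. None passed edgeR (adjusted p = 0.166, 0.132 and 0.138), while DESeq2 called all 3 higher, against 3.41% of all genes tested. Myl12a and Myl12b are near-identical neighbours on chromosome 17 whose reads may be split between them.

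The 3 muscle actins stood higher in both KO samples than in both WT samples, as did 23.2% of all genes tested. Acta1 (ENSMUSG00000031972), the actin of skeletal muscle that is also made in the embryonic heart, stood at 377 and 416 CPM for WT against 855 and 1606 for KO (log2 fold change 1.63, SE 0.32, edgeR adjusted p = 0.130). Acta2 (ENSMUSG00000035783), the smooth muscle alpha-actin, was at 346 and 384 CPM for WT against 514 and 1025 for KO (1.08, SE 0.35, adjusted p = 0.255). Actg2, the gamma-actin of enteric smooth muscle, was rare, at 12.5 and 14.2 CPM for WT against 16.9 and 29.8 for KO (0.81, SE 0.30). In each of them the higher value was in KO B, and the KO samples differed more than the WT samples did. Acta1 lies on chromosome 8, whose genes stood at a median of 0.25, and was at 1.39 with that median removed. The coding sequences of actin genes are very alike, so reads could be split between them in a way the counts do not show.

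The cytoplasmic actins were the most abundant members and differed less. Actb was at 1946 and 1948 CPM for WT against 2176 and 2666 for KO (log2 fold change 0.31, SE 0.15, edgeR adjusted p = 0.392). Actg1, on chromosome 11, overlapped between genotypes, at 3142 and 3807 CPM for WT against 3347 and 4179 for KO (0.12, SE 0.17). With the chromosome median removed Actg1 was at 0.59 (SE 0.17, edgeR adjusted p = 0.262). Without these 2 genes the members took 0.832% and 0.986% of reads in WT and 1.41% and 1.70% in KO, so most of the difference in the set's share of reads lay outside them.

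Transgelin and calponins bind along actin filaments, and Tagln and Cnn1 are classic markers of smooth muscle. Tagln (ENSMUSG00000032085) and Lmod1 had the highest fitted values of the set, 1.69 and 1.68. Tagln stood at 156 and 210 CPM for WT against 377 and 807 for KO (log2 fold change 1.69, SE 0.42, edgeR adjusted p = 0.179), and was at 1.04 without KO sample B, below Myh9. Cnn1 was at 26.2 and 31.7 CPM for WT against 42.7 and 67.8 for KO (0.93, SE 0.26). The forms made outside muscle differed less in each family, with Cnn2 at 233 and 217 CPM for WT against 285 and 412 for KO (0.63, SE 0.20). Cnn3 was at 284 and 269 CPM for WT against 358 and 434 for KO (0.52, SE 0.15), and Tagln2 at 329 and 343 CPM for WT against 387 and 483 for KO (0.37, SE 0.15). All 5 were higher in both KO samples than in both WT samples, against 23.2% of all genes tested. The gene model of Tagln overlaps that of Pcsk7, and whether the counting used strand is unknown.

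Tropomyosins, the coiled coils that set which myosins can reach the filament, showed a graded pattern. Tpm2 was at 49.5 and 63.7 CPM for WT against 95.1 and 155 for KO (log2 fold change 1.15, SE 0.28). Tpm1, from which muscle and non-muscle forms are spliced, was at 507 and 758 CPM for WT against 1121 and 1604 for KO (1.11, SE 0.27). Tpm4 was at 328 and 396 CPM for WT against 538 and 639 for KO (0.70, SE 0.16). Tpm4 lies on chromosome 8 and was at 0.45 (SE 0.16, edgeR adjusted p = 0.336) with that median removed. Tpm3 barely differed, at 343 and 379 CPM for WT against 418 and 407 for KO (0.19, SE 0.13, edgeR adjusted p = 0.555). The 3 others had edgeR adjusted p values of 0.137 to 0.168, and counts per gene do not tell the spliced forms apart. The gene models of Tpm2 and Car9 overlap.

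The crosslinkers stood higher in KO by a narrow range of log2 fold changes, 0.66 to 0.79. Flna, the widespread filamin, was the most abundant member after the cytoplasmic actins in WT, at 848 and 1088 CPM in A and B, and stood at 1658 and 1686 CPM in KO (0.79, SE 0.16, edgeR adjusted p = 0.117). Actn4, a non-muscle alpha-actinin, was at 485 and 461 CPM for WT against 712 and 901 for KO (0.77, SE 0.16). The gene models of Actn4 and Capn12 overlap. Actn1 was at 404 and 473 CPM for WT against 585 and 797 for KO (0.66, SE 0.19). Flnc, the filamin of striated muscle, varied most between the WT samples, at 294 and 483 CPM, and stood at 589 and 667 CPM in KO (0.69, SE 0.26). Flna and Flnc thus differed by little between the KO samples, whereas the alpha-actinins were higher in KO B than in KO A.

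Of the other filament binders, 2 stood higher and 1 lower. Lmod1, a leiomodin that nucleates actin filaments in smooth muscle, was scarce, at 7.26 and 7.93 CPM for WT against 17.9 and 30.8 for KO (log2 fold change 1.68, SE 0.30, edgeR adjusted p = 0.110). Cald1, which encodes caldesmon, was at 260 and 398 CPM for WT against 567 and 871 for KO (1.13, SE 0.30, adjusted p = 0.189). Smtn, which encodes smoothelin, was the one member with both KO samples below both WT samples, at 143 and 117 CPM for WT against 104 and 96.0 for KO (-0.38, SE 0.15, adjusted p = 0.316). Smtn lies on chromosome 11 and was at 0.089 (SE 0.15) with that chromosome's median removed, so its direction turned with that step.

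Of the kinases that switch myosin on, Rock2 stood higher in both KO samples, while Rock1 and Mylk barely differed. Rock2 was at 149 and 178 CPM for WT against 219 and 237 for KO (log2 fold change 0.48, SE 0.15, edgeR adjusted p = 0.207). Rock1 was at 81.8 and 82.2 CPM for WT against 89.5 and 82.6 for KO (0.069, SE 0.12). Its lower KO sample was only 1.004-fold above its higher WT sample, yet it counts among the 29 members that did not overlap upward. Mylk, the light chain kinase most used by smooth muscle, was near the bottom of the set, at 5.04 and 4.83 CPM for WT against 5.75 and 4.06 for KO (-0.010, SE 0.29), and its direction changed in some alternatives. Per kilobase of transcript, the mean level of Mylk was 0.632 CPM in WT and 0.628 CPM in KO.

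Srf itself overlapped between genotypes, at 39.3 and 50.3 CPM for WT against 46.0 and 51.0 for KO (log2 fold change 0.11, SE 0.17). Ankrd1, a muscle ankyrin repeat gene widely used as a readout of the mechanosensitive cofactors YAP and TAZ, was at 17.4 and 12.6 CPM for WT against 30.3 and 30.2 for KO (1.01, SE 0.21, edgeR adjusted p = 0.119). Unlike most members it was lower in WT B than in WT A. The filament turnover genes stayed close to WT, with the severing protein gene Cfl1 at 489 and 480 CPM for WT against 530 and 560 for KO (0.17, SE 0.12). Pfn1, which encodes the monomer-binding profilin, overlapped at 441 and 528 CPM for WT against 412 and 453 for KO (-0.16, SE 0.15). Pfn1 also lies on chromosome 11 and was at 0.31 (SE 0.15) with its median removed. The gene models of Pfn1 and Eno3 overlap.

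Within families, the make-up differed most between genotypes for the actins, heavy chains, tropomyosins and transgelins. Shares here are of the family's reads per kilobase of transcript. Acta1 held 7.01% and 6.97% of actin in WT A and B and 13.2% and 17.9% in KO A and B, and Acta2 held 6.99% and 6.98% in WT and 8.64% and 12.4% in KO. Actg1 held 44.4% and 48.5% in WT and 39.4% and 35.4% in KO. Myh9 made up 51.9% and 40.6% of heavy chain in WT and 63.1% and 61.8% in KO. Tagln was the lesser transgelin in WT, at 34.6% and 40.5%, and the greater in KO, at 52.0% and 65.0%. Tpm1 held 34.5% and 40.3% of tropomyosin in WT and 44.2% and 49.8% in KO, while Tpm3 held 30.2% and 26.1% in WT and 21.3% and 16.3% in KO.

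Calponins and light chains kept a more even make-up. Cnn1 held 3.59% and 4.58% of calponin in WT and 4.65% and 5.55% in KO, and Myl9 held 4.73% and 4.50% of the regulatory light chains in WT and 4.62% and 5.25% in KO. Ratios of read counts re-express the same reads as the shares, so they are no separate check. Like the shares, they do not depend on scaling between libraries. The log2 ratio of Myh9 to Myh10 was 0.069 and -0.60 in WT and 0.74 and 0.66 in KO, a difference of 0.96. Tagln to Tagln2 differed by 1.24, Tpm1 to Tpm3 by 0.92 and Acta2 to Actb by 0.69. For each of these 4 ratios both KO samples lay above both WT samples, and the exact permutation test (two-sided) gave p = 0.33, the smallest this design allows. Without KO B the Acta2 to Actb difference was 0.34, and without WT B the Myh9 to Myh10 difference was 0.63.

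**Figure D3:**
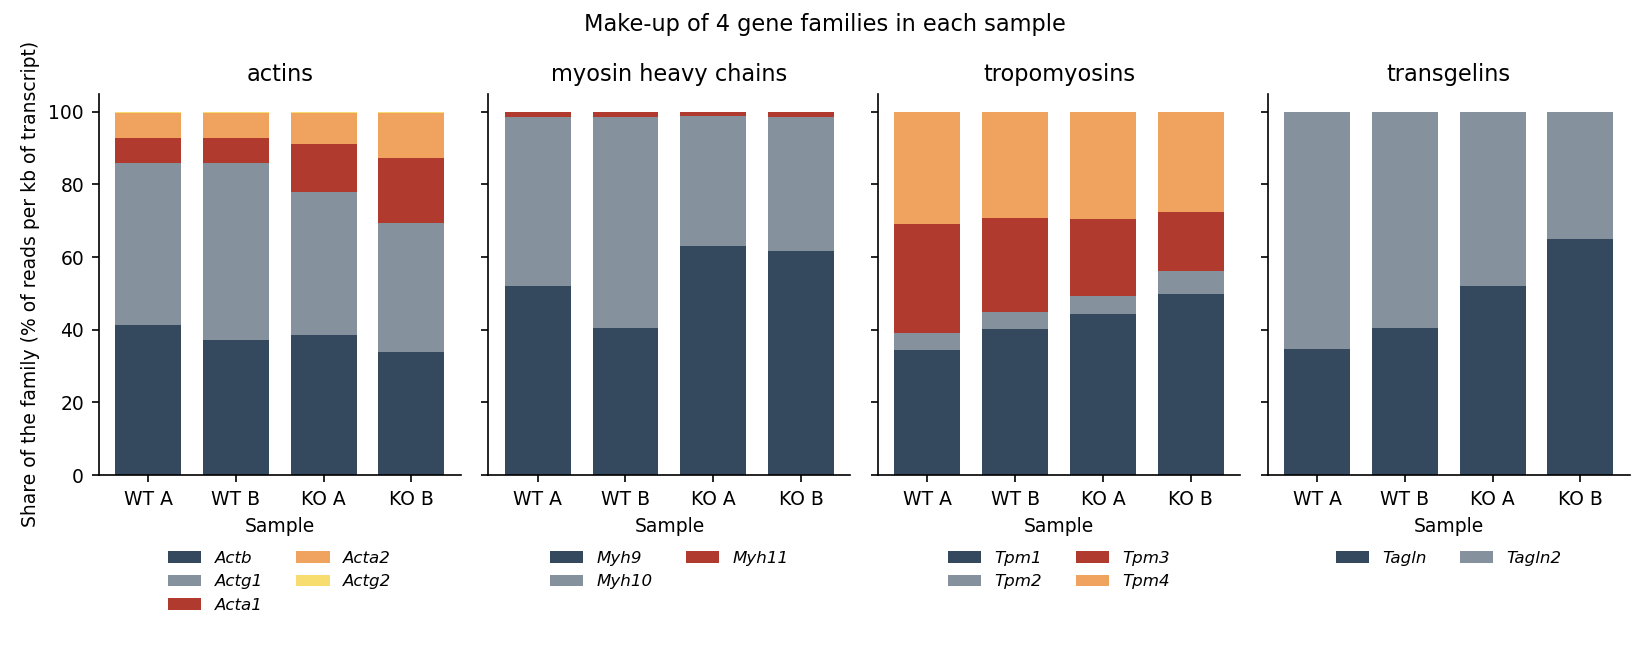
Share of each gene in the reads per kilobase of its family, in percent, for the 4 samples. Acta1 and Acta2 take more of the actins, Myh9 more of the heavy chains, Tpm1 more of the tropomyosins and Tagln more of the transgelins in both KO samples than in either WT sample.

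Samples of one genotype also differed in these genes. Sample B was above sample A for 26 of 34 members in WT and 28 of 34 in KO, against 49.7% and 53.8% of all genes tested, with median log2 differences of 0.17 and 0.31 (0.1 CPM added to each level for these medians). In KO the widest gaps were in the smooth and striated muscle genes Tagln (1.10), Acta2 (0.996), Acta1 (0.910), Actg2 (0.81) and Lmod1 (0.78). In WT they were in Flnc (0.72), Myh10 (0.63), Cald1 (0.61) and Tpm1 (0.58), whereas Acta1 and Acta2 differed by 0.14 and 0.15. Myh9 differed by -0.039 in WT and -0.0078 in KO. The median difference between genotypes was 0.53 without KO B and 0.87 without KO A. Without KO B the fitted value moved by over 1.5 times or turned in 14 of 34 members, among them Tagln (1.04), Acta2 (0.49), Actg2 (0.34), Cnn1 (0.56) and Tpm2 (0.75). It did so in 8 members without WT A, 6 without WT B and 5 without KO A.

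**Figure D4:**
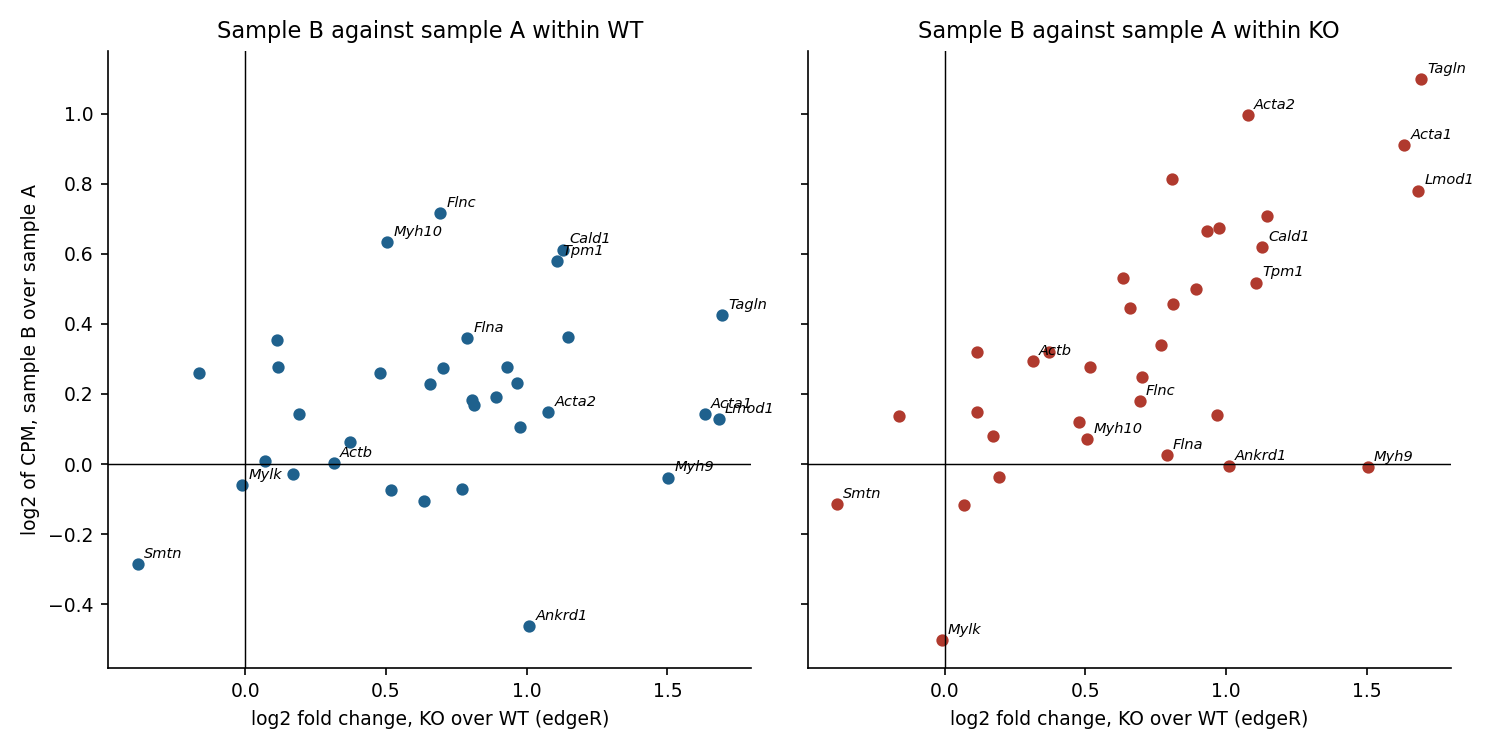
Log2 difference in CPM between sample B and sample A (vertical) within WT (left) and within KO (right), against the fitted log2 fold change of KO over WT (horizontal), 1 point per member. Tagln, Acta2, Acta1, Actg2 and Lmod1 lie highest in the KO panel while Myh9 lies near 0 in both; the axes share samples, so the slope is not a result.

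Other genes of the pathway were counted against the same shares over all genes. Of 34 further genes of actin filament assembly, 0 passed edgeR, while 8 had an unadjusted p under 0.05, all higher (median 0.22), against 7.61% of all genes tested. DESeq2 called 4, also all higher, against 3.41%. Among the most abundant was Dstn, a relative of cofilin, at 412 and 414 CPM for WT against 576 and 761 for KO (0.69, SE 0.17, edgeR adjusted p = 0.148). Gsn, which encodes the severing protein gelsolin and was named after its value was seen, had the largest fitted difference, 1.87 (SE 0.30). Of 11 other myosins 0 passed edgeR, while 2 had an unadjusted p under 0.05, both higher, against 7.61% of all genes (3.41% for DESeq2). DESeq2 called 1 of them, Myh14, the remaining non-muscle myosin II heavy chain, at 30.6 and 23.0 CPM for WT against 56.7 and 77.6 for KO (1.33, SE 0.23). The most abundant, Myo1c and Myo18a, were at -0.021 and 0.042, and at 0.45 and 0.51 with the median of their chromosome, 11, removed.

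Of 30 Srf cofactors and targets of Srf, MRTF and YAP, 0 passed edgeR. Their median was 0.35, with 26 above 0 (86.7%, against 48.7% of all genes tested). DESeq2 called 6 higher and 0 lower, against 3.41% and 3.55% of all genes. At an unadjusted edgeR p under 0.05, 9 were higher and 0 lower, against 7.61% and 7.86%. For 14 genes both KO samples lay above both WT samples and for 1 below, against 23.2% and 22.4%, and 15 overlapped. The most abundant were Vcl, which encodes the adhesion protein vinculin (0.53, SE 0.13), and Amotl2, a YAP target and regulator (0.82, SE 0.25). The secreted YAP targets Ccn1 and Ccn2 stood at 0.89 (SE 0.32) and 0.94 (SE 0.29). Fos and Egr1, on the same list, overlapped between genotypes and were higher in B than in A in both. Fos was at 24.4 and 94.2 CPM for WT against 61.6 and 213 for KO (1.21, SE 0.91). Egr1 was at 44.4 and 105 CPM for WT against 45.1 and 116 for KO (0.11, SE 0.64). Of the cofactor genes, Mrtfa was at 33.5 and 35.1 CPM for WT against 33.4 and 35.4 for KO, and Yap1 at 0.24 (SE 0.24). Elk3, a ternary complex factor, was at 69.0 and 49.3 CPM for WT against 49.0 and 44.6 for KO (-0.34, SE 0.20), with both KO samples lower. Myocd, the cofactor specific to smooth and heart muscle, was at 4.95 and 19.0 CPM for WT against 5.92 and 5.35 for KO (-1.09, SE 0.66), so its high value was in WT B alone. Ccn1, Ccn2, Fos, Egr1, Mrtfa, Yap1, Elk3 and Myocd were named after their values were seen.

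Sarcomere and heart genes were spread to both sides of 0, with 11 above (57.9%, near the 48.7% of all genes tested) and 8 below. Of 20 measured, 19 were tested and 0 passed edgeR (median 0.20). At an unadjusted edgeR p under 0.05, 4 were higher and 1 lower, against 7.61% and 7.86% of all genes. DESeq2 called 2 higher and 1 lower, against 3.41% and 3.55%. Des, the muscle intermediate filament gene, was at 67.2 and 74.9 CPM for WT against 168 and 202 for KO (1.38, SE 0.15, edgeR adjusted p = 0.0614), and Myh7 at 0.20 (SE 0.52). Named after their values were seen, the heart actin gene Actc1 was at 56.0 and 66.7 CPM for WT against 56.5 and 76.7 for KO, and the atrial light chain gene Myl7 stood out in WT B alone, at 49.9 CPM against 4.31, 4.49 and 1.44 CPM in WT A, KO A and KO B. Summed levels of this list overlapped, at 312 and 432 CPM for WT against 405 and 571 for KO.

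**Figure D5:**
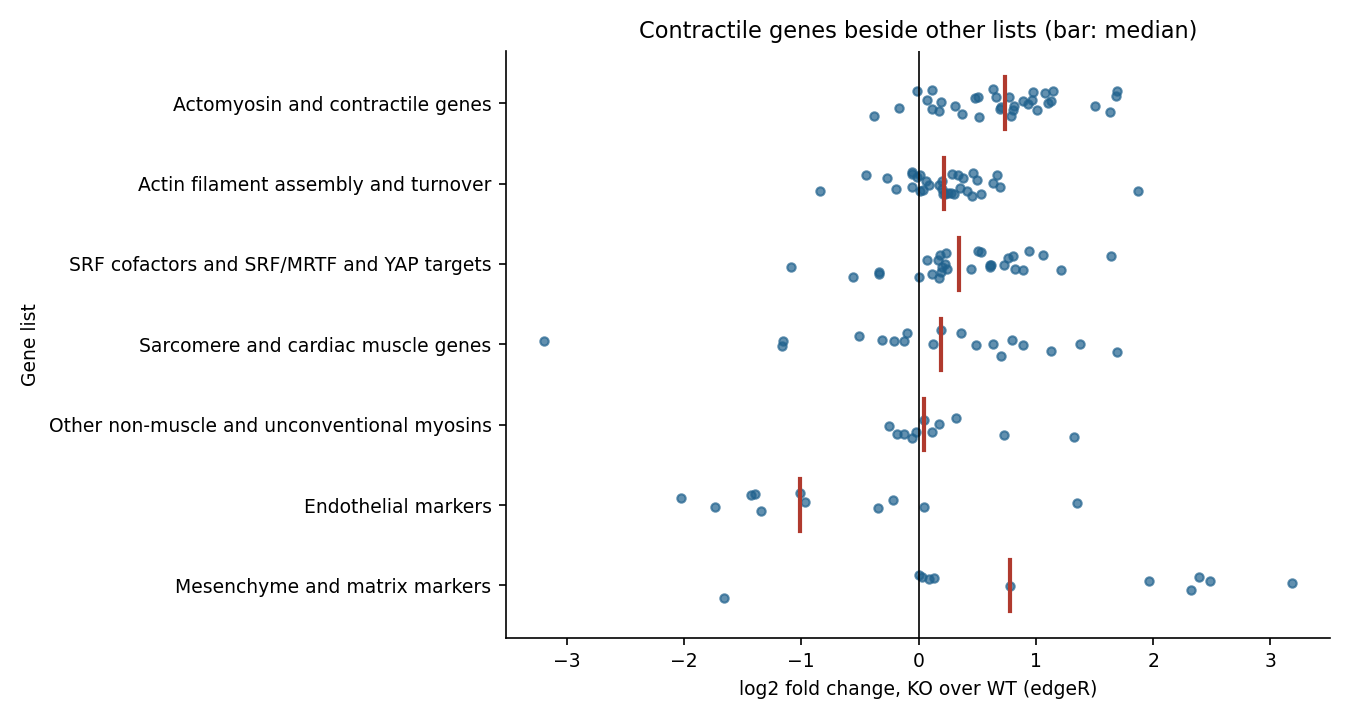
Fitted log2 fold change of KO over WT for each tested gene of 7 lists, with the list's median as a red bar. Contractile genes have a median of 0.74, the 4 lists of related genes 0.042 to 0.35, endothelial markers -1.01 and mesenchyme markers 0.78.

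Markers of other cell types differed between the samples beside these genes, and their part in the values above was not tested. In bulk RNA, fewer cells of a type and less RNA per cell cannot be told apart. The 12 mesenchyme and matrix markers measured summed to 195 and 379 CPM for WT against 814 and 1415 for KO, with a median log2 fold change of 0.78. Of 11 tested genes, 2 were higher by edgeR (Col1a2 at 3.19, Col5a2 at 1.96), against 0.0596% of all genes. Both calls were lost with chromosome medians removed (edgeR adjusted p = 0.0539 for each). Within the list Pdgfra stood at -1.66 (SE 0.78) and Lum was at 0 reads in WT B and 1 to 6 elsewhere. The 11 endothelial markers summed to 1282 and 1063 CPM for WT against 762 and 300 for KO, with no marker at 0. Kdr, the gene of the sorting marker, made up 440 and 605 of these CPM in WT and 236 and 78.6 in KO. Both KO samples lay below both WT samples for 7 markers, against 22.4% of all genes tested. They lay above for Emcn (1.35, SE 0.61), and 3 overlapped, among them Cdh5 (0.050, SE 0.61). EdgeR called 0 of 11, with 4 lower at an unadjusted p under 0.05 (against 7.86%) and 1 lower by DESeq2 (against 3.55%). The 10 blood markers summed to 174 and 197 CPM for WT against 11.97 and 8.66 for KO. Of 9 tested, 5 were lower by edgeR, namely Itga2b, Gfi1b, Plek, Hba-x and Vav1, against 0.125% of all genes. Hbb-bh1 was at 0 in both KO samples. Pluripotency markers, 9 in number, summed to 1470 and 479 CPM for WT against 774 and 890 for KO and so overlapped between genotypes, and 9 visceral endoderm markers to 97.5 and 46.8 CPM for WT against 39.1 and 14.6 for KO. Neither list had a gene called by edgeR, and at an unadjusted p under 0.05 there were 2 lower and 0 lower, with the same counts by DESeq2. The shares of all genes were 7.86% and 3.55%.

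Because many contractile genes are read through Srf, their promoters were searched for its site, the CArG box, in RefSeq windows of 250 bases before to 50 after a start site (build GRCm38.p6). Of the 35 named members, 30 had a window, namely 29 of the 34 measured and Myl6. The CArG box searched is CC, then 6 bases that are each A or T, then GG, a pattern that is the same on both strands. It lay in a window of 6 of the 30, Myl6 included (20%), and in 1.62% of the 11980 tested genes with a window. The stretches around the boxes of the 5 measured genes among them are printed, with the box in capitals, to show the match in each.
Acta1, chr8:123894819-123894868, minus strand: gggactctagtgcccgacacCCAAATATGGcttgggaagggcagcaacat
Myl9, chr2:156775283-156775332, plus strand: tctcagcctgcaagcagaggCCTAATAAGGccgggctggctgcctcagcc
Cnn2, chr10:79988524-79988573, plus strand: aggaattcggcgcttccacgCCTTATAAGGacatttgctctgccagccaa
Actg1, chr11:120348556-120348605, minus strand: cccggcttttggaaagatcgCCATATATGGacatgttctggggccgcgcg
Srf, chr17:46556195-46556264, minus strand: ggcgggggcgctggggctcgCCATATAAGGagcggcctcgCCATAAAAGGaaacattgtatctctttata

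Srf carries 2 boxes in tandem and the others 1. These 5 genes ran from Acta1 at a log2 fold change of 1.63 to Actg1 at 0.12 and Srf at 0.11, with a median of 0.63 against 0.74 for the 24 measured members whose window held no box. Sites outside the window, and sites that depart from this pattern by a base, were not looked for. The 5 measured members with no window (Actb, Actg2, Tagln, Myh11 and Rock1) had a median of 0.81.

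The letters CATTCC, the core of the site of TEAD factors through which YAP acts, were searched on both strands. They lay in a window of 15 of 30 members (50%) against 14.9% of tested genes with a window. Of the 8 measured members with a window and a log2 fold change above 1, 6 held them, and of the 21 others 9 did. The stretches of those 6 are printed because they belong to the members that differed most, with the 6 letters in capitals (GGAATG where the match is on the other strand). The groups were formed after the values were known, and the shares are descriptions of letters, not of binding.
Lmod1, chr1:135324671-135324700, plus strand: ccaagattccctGGAATGtcctcaagtttc
Acta1, chr8:123894804-123894833, minus strand: gaagggcagcaaCATTCCttcggggcggtg
Cald1, chr6:34598339-34598368, plus strand: gagcatgcctagGGAATGacaggcatctgc
Tpm1, chr9:67049252-67049281, minus strand: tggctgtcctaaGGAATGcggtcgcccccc
Acta2, chr19:34255502-34255531, minus strand: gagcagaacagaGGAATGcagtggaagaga
Ankrd1, chr19:36120037-36120066, minus strand: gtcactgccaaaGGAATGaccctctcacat
Ankrd1, chr19:36119950-36119979, minus strand: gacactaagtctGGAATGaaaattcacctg

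Ankrd1 held 2 matches. In Acta1 the CATTCC match began 46 bases before the start site and the CArG box 73 bases before it. The letters AGATAA, a site of the GATA factors that act with Ldb1 in blood, lay on either strand in a window of 2 of the 30 members (6.67%, Tpm3 and Ankrd1) and of 8.25% of tested genes with a window. No match of 1 motif overlapped a match of another in these windows.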

How the data were processed

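RNA from Flk1-sorted cells of 2 genotypes was measured in 8 libraries. The deposited table holds raw read counts per Ensembl gene and a transcript length, per the file headers. The submitters' processing notes name the build mm9 and DESeq, with the aligner, counting tool, strand setting and annotation release not given in the sources used here. Symbols came from a table of gene IDs (20362 of 21868 matched), and chromosomes and overlaps from RefSeq genes of GRCm38.p6, matched by symbol, with no coordinate carried between builds. The Ldb1 peak list was not used, since no mm9 annotation was at hand to place peaks at genes.

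Libraries 1 and 2 and libraries 3 and 4 of a genotype were summed. After filterByExpr and TMM scaling, edgeR 4.0.16 (robust quasi-likelihood, R 4.3.3) tested the counts of 4 samples, with Benjamini-Hochberg adjustment over 16785 genes. The SE is the log2 fold change divided by the root of the F statistic. The script was tested on simulated data. Per-kilobase values divide CPM by the deposited length. The members and the 10 other lists were chosen with earlier results of these data known. All members are named; from other lists, up to 4 called genes at a mean level of 1 CPM or more and the 2 most abundant others, and any other gene was named after its values were seen. One list, and one gene that this rule names, are not reported here. Alternatives used DESeq2 1.42.0 and limma 3.58.1. Motifs and figures used Python 3.11.15 and matplotlib 3.10.9.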

Additional observations from a re-analysis of the deposited data

How the results depend on the processing

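The count of 31 genes called, 1 of them a member, depended on the setting. DESeq2 called 1168 genes and 19 members higher, limma-voom 3 and 0, no filter on low counts 151, a filter of 1 CPM in 2 samples 5 and 0, and an adjusted p of 0.01 left 2 and 0. Fitting 8 libraries separately called 3860 genes, with 28 members higher and 1 lower, and with the replicate block 3410, 26 and 1; these treat near-duplicate libraries as replicates. Over all 16785 genes tested, same-numbered samples of the 2 genotypes did not deviate together (r = -0.081), but some genes did. Fos stood higher in B than in A by a log2 difference of 1.95 in WT and 1.79 in KO, and Egr1 by 1.24 and 1.36. The pluripotency markers went apart, with 0 of 9 higher in B in WT and 8 in KO. Whether same-numbered samples share a condition was not tested. With sample A or B as a replicate block 5 genes and 0 members passed. Without 1 sample, genes called ranged from 0 (edgeR without KO sample A, with 1704 genes at an unadjusted p under 0.05, or without KO sample B, with 1106) to 1674 (without WT sample B), members called higher from 0 to 13, and the members' median from 0.53 to 0.87. Without 1 library, 22 to 40 genes were called and Myh9 was called each time. The members above 0 numbered 30 to 33 in every alternative. Directions that turned were those of Actg1 (-0.025 without WT sample A; without 1 sample -0.055 to 0.27), Srf (-0.060 to 0.31 without 1 sample), Mylk (0.012 without WT sample A; -0.28 to 0.22 without 1 sample, and 0.049, 0.048 and 0.036 without WT library 1, WT library 3 and KO library 3), and, with chromosome medians removed, Smtn (0.089) and Pfn1 (0.31). The cause of these changes was not tested. Depth does not limit the abundant members; Mylk, Lmod1, Actg2, Ankrd1 and Myh11, below 31 CPM, are counted less precisely.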
